A study of Mus musculus with 8 samples.

Results

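Glycosaminoglycan synthesis and sulfation enzymes were followed in C2C12 myotubes through 10 genes chosen by name: the sulfotransferases Chst15, Chst11, Chst12, Chst1, Chst2, Hs6st1 and Ndst1, the exostosins Ext1 and Ext2, and the hyaluronan synthase Has2. Of these 10 genes, 9 had a probe set annotated with their symbol alone (11 probe sets in all, of 20380 such probe sets on the array). Of those 9 genes 6 were bright enough to be tested, among 8352 genes tested. Ndst1 was not analysed here. C2C12 is a mouse myoblast line that fuses into myotubes in low serum. In the starved group, the cultures were fed up to day 4 of differentiation in medium with 2% horse serum and then left without new medium for 4 days. In the control group, cultures of the same line and medium were re-fed every 48 h over the same 4 days, and RNA of both groups was isolated on day 8. There were 4 starved arrays (E to H) and 4 control arrays (A to D), with 1 RNA sample on each Affymetrix array.

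Glycosaminoglycans are long sugar chains of repeating disaccharides. Chondroitin sulfate and heparan sulfate are assembled in the Golgi on core proteins, starting from a short linkage region, and are then sulfated from the donor PAPS at chosen positions, whereas hyaluronan is spun out at the plasma membrane without a core protein or sulfate. In muscle such chains sit at the cell surface and in the basement membrane, where heparan sulfate binds growth factors such as the fibroblast growth factors.

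The members were proposed with this starved against control comparison already known, so their differences are given as a description and carry no p-value and no test. Log2 signals are quantile normalized values of log2(intensity + 10.9), fold changes are starved minus control on that scale with the standard error of limma's fit, and SDs are over n = 4 arrays. A gene outside the members is said to have risen or fallen where its brightest tested probe set passed an adjusted p of 0.05 (Benjamini-Hochberg over all 13575 probe sets tested). The labels do not say whether the arrays of a group came from separate cultures, so errors and p-values cover only how these samples differ, possibly for technical reasons. In bulk RNA, fewer cells of a type and less RNA per cell cannot be told apart.

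Starved arrays were dimmer in the mean, with overlap between the groups, and some marker genes differed between the groups. The trimmed mean intensity ran from 243 to 366 in starved and from 317 to 455 in control arrays, with a mean log2 difference, starved minus control, of -0.38 (exact permutation p = 0.0857, two-sided, 4 arrays in each group). Control B stood apart in the 3' to 5' log2 ratio of the Gapdh control probe sets, which was -0.23 to -0.04 in starved arrays, 1.40 in control B and -0.22 to -0.12 in the other controls. It did not stand apart in the same ratio of the actin control probe sets, which was 0.02 to 0.27 in starved arrays, 0.32 in control B and 0.08 to 0.29 in the other controls. All 10 myotube markers, among them Acta1 and Ckm, were bright enough to be tested, and 1 fell (Des) while 0 rose. Their summed normalized signal was 81947 to 85617 in starved and 87532 to 90926 in control arrays. Of the fibroblast markers 4 of 10 fell and 1 rose (summed signal 16339 to 18558 in starved and 21032 to 22983 in control arrays). All 4 tested smooth muscle markers of 6 fell (8081 to 9037 in starved, 12909 to 13150 in control arrays), Cnn1 and Myh11 being too dim to test. Of the markers of undifferentiated or cycling myoblasts 2 of 6 tested fell, of 8 listed (1245 to 1441 in starved, 1996 to 2148 in control arrays), and Myf5 was too dim to test. Over all tested genes 6.94% fell and 4.25% rose. The fibroblast and smooth muscle names do not show that such cells were present in cultures of this line. Dcn and Lum are both fibroblast markers and listed core proteins here. Whether the marker differences bear on the values of Chst15, Has2 and the core proteins was not tested.

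Among the 6 members bright enough for the fit, the mean was lower in starved myotubes for 4 (Chst15, Has2, Ext1 and Hs6st1) and higher for 2 (Chst11 and Ext2). Of the 6, 2 (Chst15 and Has2) lay among the genes called lower over the whole array and 0 among those called higher, where 6.94% of all tested genes were called lower and 4.25% higher. The members were chosen with this contrast in view, so nothing is read from these counts. The median log2 fold change was -0.26 over the tested members and 0.01 over all tested genes. Starved arrays did not overlap control arrays, and were lower, for 3 of the 6 tested members (Chst15, Has2 and Ext1), where 10.2% of all tested genes did so. Counting also dim genes, this held for 4 of the 9 members with a probe set (the same genes and Chst2), against 7.63% of 12393 genes.

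**Figure D1:**
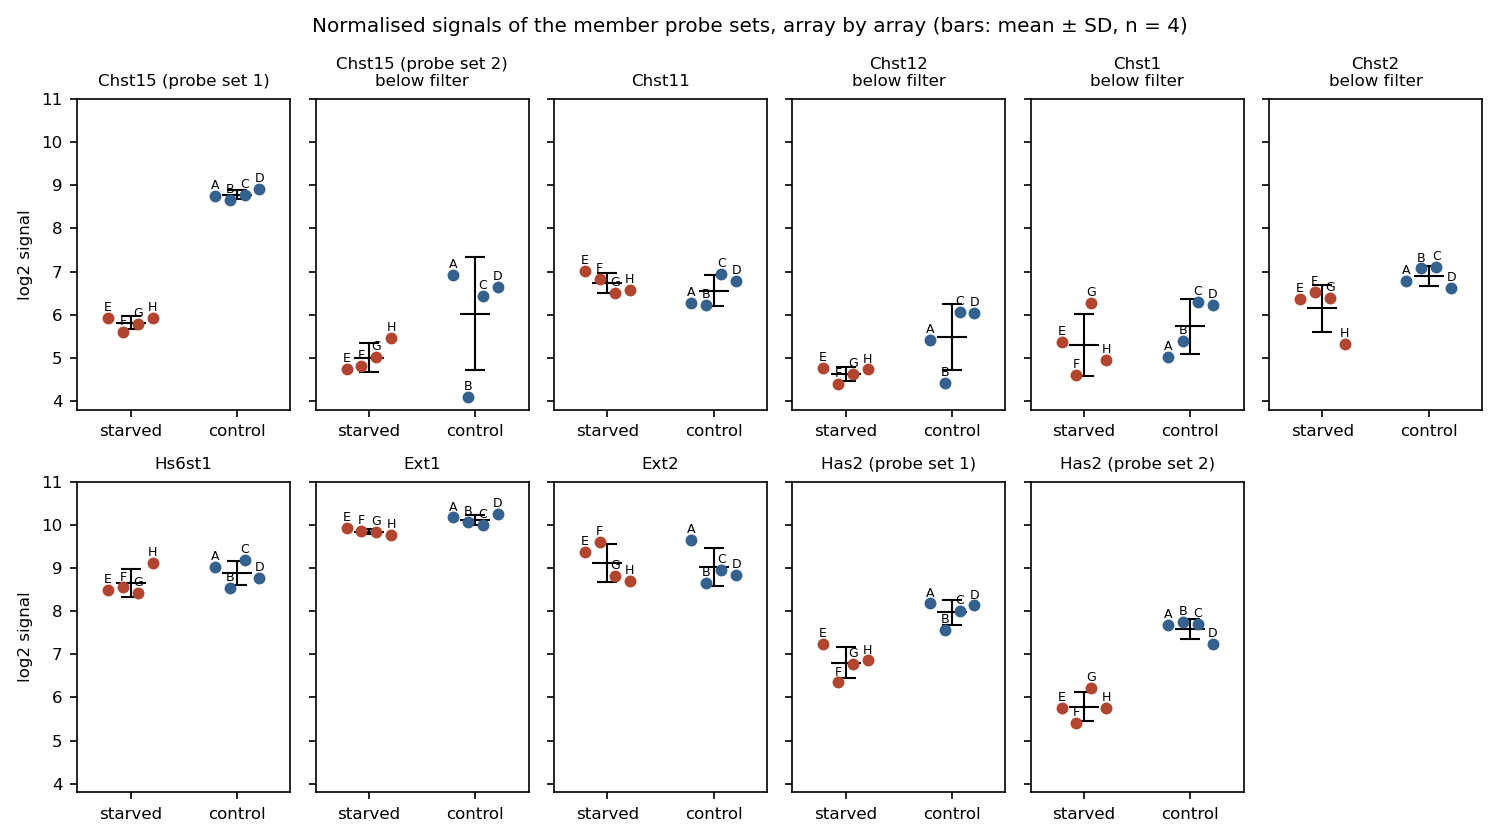
Quantile normalized log2 signals of the 11 member probe sets, 1 point per array labelled with its letter, starved (red) left of control (blue), with mean and SD (n = 4) as bars. Starved and control points of the brighter Chst15 probe set lie far apart, at means of 5.81 and 8.78, while those of Ext2, Hs6st1 and Chst11 intermix.

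Chst15, the sulfotransferase that adds a sulfate to carbon 6 of an N-acetylgalactosamine already sulfated on carbon 4 and so makes the disulfated chondroitin sulfate E unit, had the lowest fold change of all 8352 tested genes. Its brighter probe set had deposited intensities of 33.9, 35, 39.0 and 49.8 in starved E to H, against 589, 361, 437 and 604 in control A to D. Every starved array was dim and every control array bright, and the groups did not overlap. On the normalized log2 scale the same probe set stood at 5.93, 5.61, 5.78 and 5.92 in starved E to H and at 8.76, 8.66, 8.78 and 8.92 in control A to D. The level was 5.81 ± 0.15 in starved and 8.78 ± 0.11 in control arrays (SD, n = 4 each), with a difference of -2.97 ± 0.14 (SE) and a control level 7.81-fold above the starved one. Its residual SD was 0.13, and the median over all tested genes was 0.19. Nothing is read from this rank or spread, since the members were chosen with this contrast known. The size of the difference depends on the offset, since the starved arrays were dim. The difference was -3.25 without an offset and -2.47 with an offset of 38.9. The starved mean lies under the brightness filter of 6.61, so the probe set was tested through its control arrays alone. Without control B, Chst15 was at -3.02.

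The other Chst15 probe set was below the brightness filter in its mean over all arrays and was not tested. It stood at 4.73, 4.81, 5.01 and 5.46 in starved E to H, against 6.92, 4.09, 6.43 and 6.65 in control A to D. Controls A, C and D lay above every starved array, and control B lay below them all, so the groups overlapped. The difference was -1.02, and -1.68 without control B. Whether the high Gapdh ratio of control B bears on its low Chst15 reading was not tested.

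Chst11 and Chst12 place the sulfate on carbon 4 of N-acetylgalactosamine, the modification on which Chst15 builds. Chst11 stood at 7.01, 6.83, 6.51 and 6.58 in starved E to H, against 6.28, 6.23, 6.94 and 6.79 in control A to D. Its groups overlapped, and its difference was 0.17 ± 0.22 (SE). It was 0.07 without control B and 0.08 without control A. Chst11 was below 0 in unscaled values (-0.16), where the median of all genes was -0.34. Chst12 was dim and not tested, at 4.76, 4.40, 4.63 and 4.73 in starved E to H, against 5.40, 4.43, 6.06 and 6.05 in control A to D. Here too controls A, C and D lay above the starved arrays and control B among them, and the difference was -0.85, or -1.21 without control B. In deposited intensities, which are not scaled between arrays here, Chst12 averaged 11.95 ± 2.12 in starved and 45.2 ± 23.7 in control arrays (SD, n = 4 each). The starved values and control B (10.9) were close to the offset of 10.9, so the size of the difference is uncertain.

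The start regions of these 3 chondroitin sulfotransferase genes are shown because they act on the same chain. The groups lay far apart for the brighter Chst15 probe set, and overlapped for its other probe set, Chst11 and Chst12. In that other Chst15 probe set and in Chst12, controls A, C and D lay above every starved array. The sequences are from RefSeq on GRCm38.p6, the 250 bases before the gene start, 5' to 3' on the gene's strand: Chst15 at chr7:132317229-132317478 (minus strand, the upstream one of its 2 listed starts), Chst12 at chr5:140505359-140505608 (plus) and Chst11 at chr10:82985247-82985496 (plus). Capitals mark GTCTG or its reverse complement CAGAC, the short SMAD-type element.
Chst15: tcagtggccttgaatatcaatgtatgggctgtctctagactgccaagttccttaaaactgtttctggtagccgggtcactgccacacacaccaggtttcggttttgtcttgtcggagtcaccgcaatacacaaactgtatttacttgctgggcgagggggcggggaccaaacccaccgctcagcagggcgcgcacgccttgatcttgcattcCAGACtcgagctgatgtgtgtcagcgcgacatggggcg
Chst12: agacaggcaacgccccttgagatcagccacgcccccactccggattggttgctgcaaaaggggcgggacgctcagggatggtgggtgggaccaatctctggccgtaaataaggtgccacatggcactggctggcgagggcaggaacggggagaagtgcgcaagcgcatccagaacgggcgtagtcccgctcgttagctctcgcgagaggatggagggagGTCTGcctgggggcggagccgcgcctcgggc
Chst11: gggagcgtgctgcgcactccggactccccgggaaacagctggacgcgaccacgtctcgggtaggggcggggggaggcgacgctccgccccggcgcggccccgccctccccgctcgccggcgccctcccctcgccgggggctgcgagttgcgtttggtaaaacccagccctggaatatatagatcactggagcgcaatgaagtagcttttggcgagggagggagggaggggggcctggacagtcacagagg

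Chst15 holds the element 38 bases before the start printed and 240 bases before its other listed start. Chst12 holds it 31 bases before the start, and Chst11 lacks it. Chst1 holds it too, at 201 bases, and Chst2 at 165 and 87 bases. This is a description of letters only: both strands were searched from 250 bases before to 50 after the start, and 49.6% of all 32851 listed promoters hold GTCTG. Of the 8 promoters listed for 7 member genes 5 hold it, the 2 of Chst15 overlapping each other. The ATF4 element core TGATGNAA was found in 0 of these 8 promoters and in 3.97% of all promoters, and the AP-1 motif TGANTCA in 0 of 8 and in 7.81%. The GC box GGGCGG was found in 6 of 8 and in 35.7% of all. The E-box CANNTG was found in 5 of 8 and in 72.3% of all. The 3 printed windows differ in base composition, with 54.8% G and C in Chst15, 65.6% in Chst12 and 70% in Chst11, against a median of 52.4% over all promoters.

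Chst1, which sulfates galactose in keratan sulfate, and Chst2, which sulfates N-acetylglucosamine, were also below the brightness filter. Chst2 stood at 6.36, 6.52, 6.38 and 5.33 in starved E to H, against 6.78, 7.07, 7.11 and 6.62 in control A to D. All starved arrays were lower than all controls, by 0.75 in the mean, with starved H far below the other 3 starved arrays. Chst1 stood at 5.37, 4.61, 6.27 and 4.95 in starved E to H, against 5.02, 5.38, 6.31 and 6.24 in control A to D. Its values were spread over more than 1 log2 unit within each group and overlapped between them, with a difference of -0.43.

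Ext1, which with Ext2 forms the polymerase that extends the heparan chain, stood at 9.93, 9.85, 9.83 and 9.77 in starved E to H, against 10.17, 10.07, 10.00 and 10.26 in control A to D. Every starved array was lower than every control array, with a difference of -0.28 ± 0.09 (SE). The difference was -0.67 in unscaled values, where the median of all genes was -0.34. Ext2 stood at 9.37, 9.61, 8.81 and 8.69 in starved E to H, against 9.65, 8.66, 8.95 and 8.83 in control A to D. Starved E and F and control A were high and the other 5 arrays low, so the groups overlapped, and the difference was 0.10 ± 0.24 (SE). Its sign was not stable: it was -0.07 without starved F and -0.03 without control B. In unscaled values Ext2 was at -0.26, which lies above the median of all genes there (-0.34). The residual SD was 0.09 for Ext1 and 0.44 for Ext2. Hs6st1, which sulfates carbon 6 of the glucosamine in heparan sulfate, stood at 8.50, 8.55, 8.42 and 9.12 in starved E to H, against 9.03, 8.54, 9.18 and 8.77 in control A to D. Starved H lay with the brighter controls and control B with the lower starved arrays, and the difference was -0.23 ± 0.18 (SE). It was -0.39 without starved H, -0.13 without control C and -0.60 in unscaled values.

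Has2, which makes hyaluronan, was read by a pair of probe sets and was lower in starved arrays on both. The brighter one had deposited intensities of 102, 63.0, 85.0 and 121 in starved E to H, against 396, 158, 251 and 343 in control A to D. On the log2 scale it stood at 7.24, 6.35, 6.78 and 6.86 in starved E to H, against 8.18, 7.56, 8.02 and 8.13 in control A to D. The groups did not overlap, control B being the lowest control. The level was 6.81 ± 0.37 in starved and 7.97 ± 0.28 in control arrays (SD, n = 4 each), with a difference of -1.16 ± 0.21 (SE), a control level 2.24-fold above the starved one, and the fold change ranked 79 from the lowest of 8352 genes. The dimmer probe set had a difference of -1.81 ± 0.22, with 5.75, 5.40, 6.23 and 5.75 in starved E to H, against 7.69, 7.74, 7.70 and 7.23 in control A to D. Its starved mean of 5.78 lies under the brightness filter of 6.61, so it entered the fit through its control arrays alone. Its groups did not overlap, and control B was its highest control array rather than its lowest. The mean of both probe sets was -1.48, and without control B the brighter one was at -1.30.

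**Figure D2:**
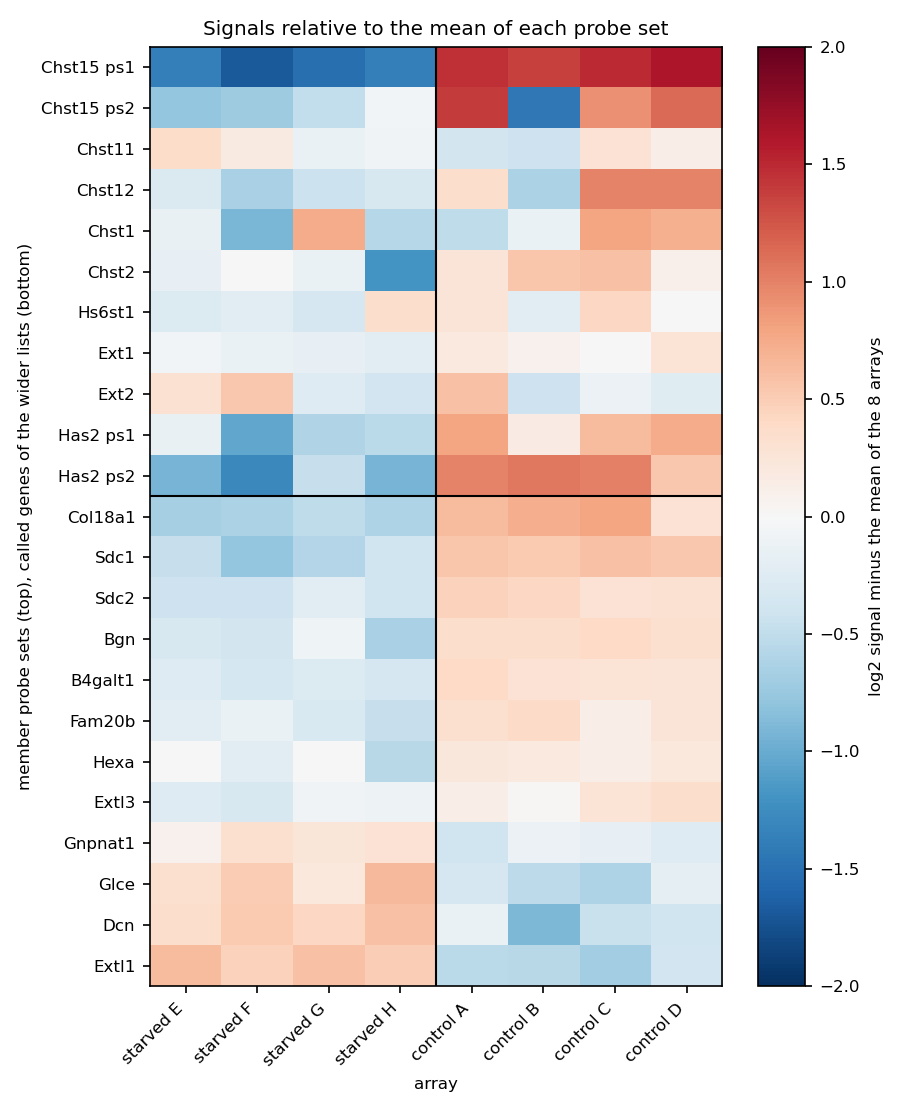
Log2 signal of each probe set (rows) minus its mean over the 8 arrays, starved arrays E to H left of control arrays A to D; member probe sets are above the line and the 12 genes of the wider lists that passed are below it. The brighter Chst15 probe set and both Has2 probe sets separate the groups, and control B breaks the pattern in the dimmer Chst15 probe set and in Chst12.

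The profile of Chst15 over the 8 arrays was set against all other tested genes as the root mean square difference of log2 signals after subtracting each gene's own mean. The nearest was that of Tnc, the matrix glycoprotein tenascin C, at 0.25, with a fold change of -2.90 ± 0.16 (SE). Adamts4, a secreted metalloprotease, followed at 0.27 with -2.49 ± 0.11, and Mfap5, a microfibril protein, at 0.28 with -2.52 ± 0.13. Because Chst15 had the lowest fold change, this distance mainly picks out other genes with a large fall in starved arrays. That fall was already known for Chst15, so the list is a description only, and shared regulation was not tested.

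The rest of the pathway was described through 8 lists of 121 genes, of which 97 had a probe set and 76 were tested. Leaving out the members, 8 of the other 70 tested genes fell and 4 rose, against 6.94% and 4.25% of all tested genes, and their median log2 fold change was -0.07, against 0.01 over all. The calls did not all lie in 1 direction within a list: heparan chain enzymes rose and fell, and most core proteins that passed fell while decorin rose. In values left unscaled between arrays, the median of all genes moved to -0.34, and the calls of the 4 genes that rose (Extl1, Glce, Gnpnat1 and Dcn) were lost, with adjusted p from 0.063 to 0.731. Of all genes called, 38% were higher, and 4.2% in unscaled values.

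Chondroitin and dermatan enzymes other than the members gave no call. Of 5 tested genes 0 passed limma's test in either direction, and 1 was higher at an unadjusted p under 0.05. Their median was 0.19, on the other side of 0 from Chst15. Chpf, a subunit of the chondroitin polymerase, was at 0.26 ± 0.10 (SE; adjusted p = 0.136), and Chst14, which sulfates carbon 4 in dermatan sulfate, was at 0.49 ± 0.26 (adjusted p = 0.292). In the linkage region list 1 of 4 genes fell and 0 rose (1 higher at an unadjusted p under 0.05). Fam20b, the kinase that phosphorylates the linkage xylose, stood at 9.17, 9.24, 9.07 and 8.92 in starved E to H, against 9.70, 9.76, 9.51 and 9.63 in control A to D. The groups did not overlap, and Fam20b fell by 0.55 ± 0.10 (adjusted p = 0.0056 in limma's test).

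Of 9 other heparan genes 2 rose and 1 fell (3 higher and 3 lower at an unadjusted p under 0.05), with a median of -0.01. Extl1, an exostosin-like glycosyltransferase, stood at 8.11, 7.93, 8.05 and 7.96 in starved E to H, against 6.92, 6.91, 6.77 and 7.09 in control A to D. Every starved array was higher, and Extl1 rose by 1.09 ± 0.13 or 2.13-fold (limma, adjusted p = 2.87e-04). Glce, the epimerase that turns glucuronic into iduronic acid in the heparan chain, stood at 9.25, 9.44, 9.14 and 9.57 in starved E to H, against 8.58, 8.41, 8.30 and 8.73 in control A to D. The groups did not overlap and Glce rose by 0.84 ± 0.13 (limma, adjusted p = 0.00182), while its dimmer probe set was at 0.53 ± 0.25 (adjusted p = 0.241). Extl3, which starts the heparan chain, fell by 0.38 ± 0.10 (limma, adjusted p = 0.032), with 9.80, 9.74, 9.99 and 9.96 in starved E to H, against 10.19, 10.09, 10.33 and 10.41 in control A to D. Without an intensity trend that call was lost, as it was on leaving out starved E, starved F, control A, control C or control D alone (adjusted p up to 0.101). Of 3 tested genes in the keratan list 1 fell and 0 rose, also at an unadjusted p under 0.05. It was B4galt1, a galactosyltransferase that also acts on other glycans, which fell by 0.61 ± 0.07 (limma, adjusted p = 3.69e-04).

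Hyaluronan genes other than Has2 gave no call in limma's test: 0 of 6 passed, and 1 was lower at an unadjusted p under 0.05. The synthase Has1 was at -0.08 ± 0.13 (adjusted p = 0.774), the hyaluronidase Hyal2 at -0.19 ± 0.15 (adjusted p = 0.484) and the hyaluronan receptor Cd44 at 0.03 ± 0.10 (adjusted p = 0.897). Has3 was too dim to be tested. In the list of sulfate donor and sugar nucleotide supply 1 of 14 genes rose and 0 fell (1 lower at an unadjusted p under 0.05), with a median of 0.08. Papss1, which makes PAPS, was at -0.25 ± 0.15 (adjusted p = 0.340), and its Golgi transporter Slc35b2 was at 0.15 ± 0.10 (adjusted p = 0.429). Bpnt2, a Golgi phosphatase that clears the by-product of PAPS, was lower in every starved array but did not pass, at -0.65 ± 0.20 (adjusted p = 0.0683), and its other 2 probe sets were at -0.05 and -0.51. Gnpnat1, an enzyme of UDP-N-acetylglucosamine synthesis, rose by 0.47 ± 0.12 (limma, adjusted p = 0.0297). Dropping the brightness filter or averaging its probe sets also ended that call, as did leaving out starved F, starved G, starved H, control A, control C or control D alone (adjusted p up to 0.0887).

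Lysosomal breakdown genes had 1 of 10 lower and 0 higher (4 lower and 0 higher at an unadjusted p under 0.05), with a median of -0.21. Hexa, the alpha subunit of beta-hexosaminidase, fell by 0.39 ± 0.11 at the edge of the threshold (limma, adjusted p = 0.0498). The call was lost with median or 75th percentile centring, with no offset, with no brightness filter, with no intensity trend, and when any 1 array other than starved E or G was left out (adjusted p up to 0.166).

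Proteoglycan core proteins, which carry the chains, had 4 of 19 genes lower and 1 higher, against 6.94% and 4.25% of all tested genes. At an unadjusted p under 0.05, 6 were lower and 1 higher. Col18a1, a collagen of the basement membrane with heparan sulfate chains, stood at 7.70, 7.73, 7.85 and 7.74 in starved E to H, against 9.0, 9.09, 9.16 and 8.65 in control A to D, and fell by 1.21 ± 0.13 (limma, adjusted p = 1.08e-04). Sdc1, the cell surface proteoglycan syndecan 1, stood at 9.81, 9.50, 9.69 and 9.87 in starved E to H, against 10.82, 10.78, 10.84 and 10.81 in control A to D, and fell by 1.10 ± 0.09 (limma, adjusted p = 2.17e-05). Neither gene's groups overlapped in these probe sets. The other tested probe set of Col18a1 was at -1.11 ± 0.56 and was not called (limma, adjusted p = 0.258). Of the other 3 tested probe sets of Sdc1, 1 was called lower (-1.39), and the others were at -0.47 and -1.42 (adjusted p = 0.0826 and 0.314). Sdc2 and Bgn, which the naming rule does not reach, were picked once their values had been seen. Sdc2 fell by 0.73 ± 0.08, and its other probe sets were at -1.25 (called) and -0.16 (adjusted p = 0.636). The small proteoglycan Bgn fell by 0.71 ± 0.10, with all 3 of its probe sets called lower. Dcn, a relative of Bgn with a chondroitin or dermatan sulfate chain, rose by 0.94 ± 0.14 (limma, adjusted p = 0.00147), with 10.92, 11.09, 10.99 and 11.16 in starved E to H, against 10.44, 9.67, 10.13 and 10.17 in control A to D. Versican, Vcan, was at 0.05 ± 0.11 (adjusted p = 0.828).

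**Figure D3:**
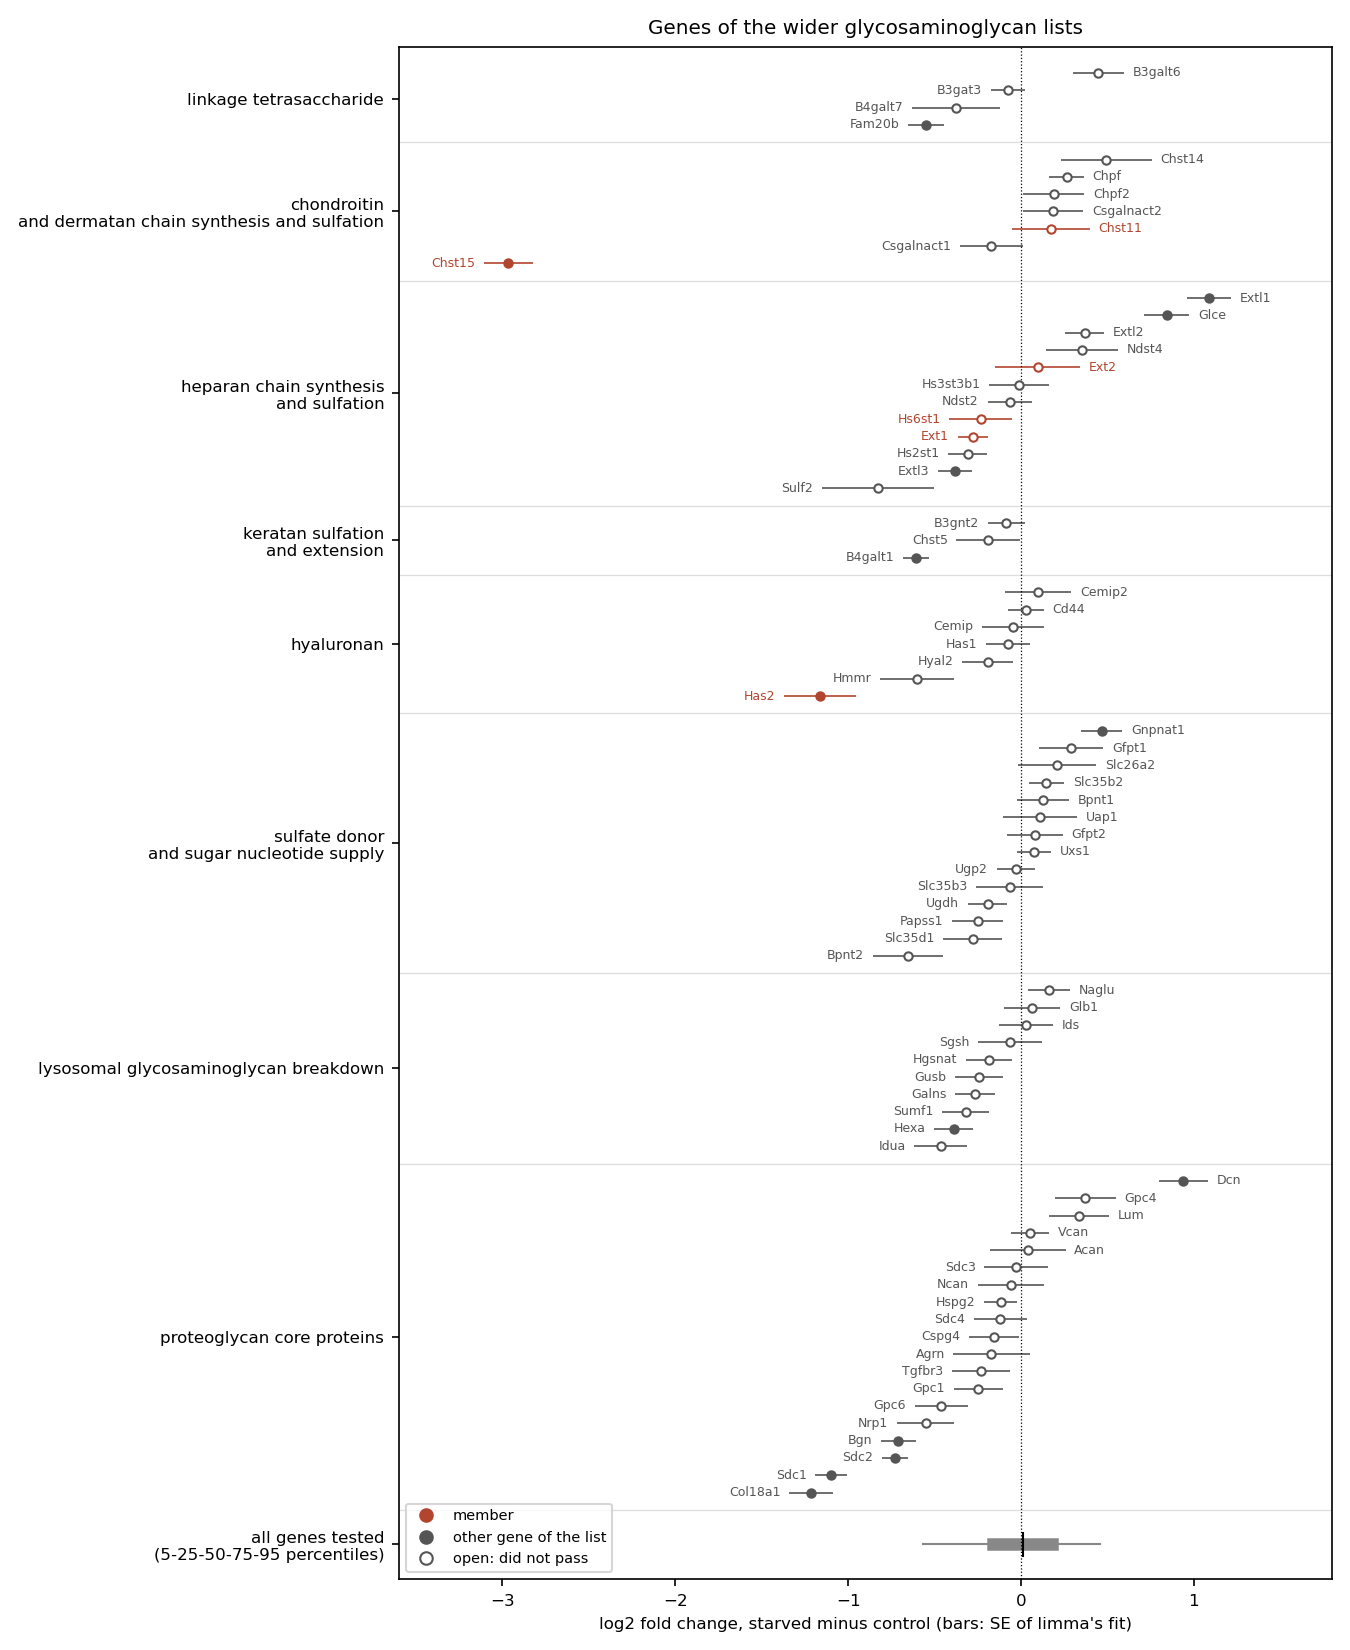
Log2 fold change, starved minus control, of every tested gene of the 8 lists with the standard error of limma's fit; members are red, filled points passed an adjusted p of 0.05, and the bottom bar gives percentiles of all 8352 tested genes. Chst15 at -2.97 and Has2 at -1.16 stand at the low end of their lists, and Extl1 at 1.09 stands at the high end of the heparan list.

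**Figure D4:**
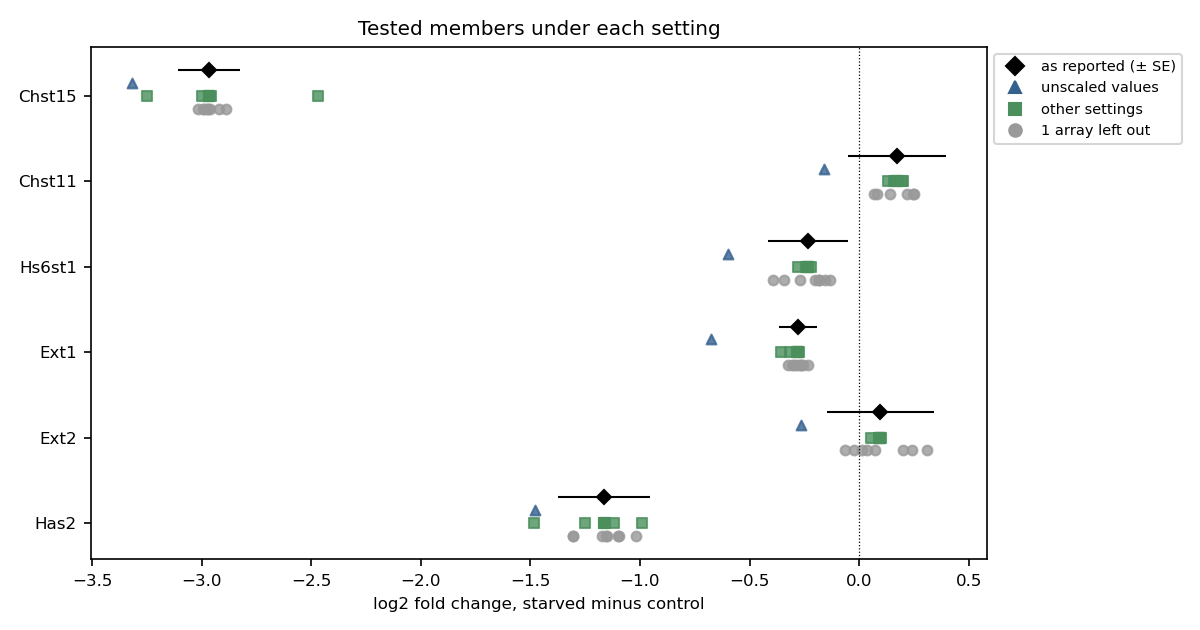
Log2 fold change, starved minus control, of the 6 tested members as reported (black, with SE), in unscaled values (blue triangles), under other settings (green squares) and with 1 array left out (grey circles). Chst15 stays between -3.32 and -2.47 and Has2 between -1.48 and -0.99 under the settings shown, while Ext2 and Chst11 lie on both sides of 0.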

How the data were processed

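RNA of 4 starved and 4 control C2C12 samples was measured on Affymetrix mouse arrays. The deposited table holds 1 intensity per probe set and array on a linear scale. The authors' software and scaling for these deposited intensities were not given in the sources used here; trimmed means ran from 243 to 455. Precision is limited by having 4 arrays in each group.

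An offset of 10.9 (the 10th percentile) was added before log2, and arrays were quantile normalized. After removal of 64 control probe sets, the test took the 13575 of 22626 whose mean log2 signal exceeded the 40th percentile (6.61). Symbols came from GEO's platform annotation, matched by gene number to RefSeq (20351 of 20380 probe sets with 1 symbol; 691 had several and 1555 none). Each gene is given by the brightest of its tested probe sets. Limma 3.58.1 in R 4.3.3 (lmFit, eBayes with trend) compared starved with control over all tested probe sets, and was tested on simulated data. Array brightness was compared by an exact permutation test over the 70 labellings.

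Named genes were all members, the 3 called genes with the largest change in each list and up to 2 called in the other direction, hyaluronan and supply genes whose groups do not overlap, and the 3 profiles nearest to Chst15. Other genes given with values that did not pass, and Sdc2 and Bgn, were picked with their values in view. The members and lists were chosen with earlier results of these data known. Alternatives were other scalings, offsets, filters and variance models, averaging the probe sets of a gene, and leaving out each array. Promoter sequences are RefSeq's on GRCm38.p6. Python 3.11.15 and matplotlib 3.10.9 drew the figures.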

Additional observations from a re-analysis of the deposited data

Results flagged for a closer look

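In 4 of 50 groups of 4 arrays examined, 1 array lay far from the other 3 by Dixon's test, where chance gives about 1 in 20. Control B had a Gapdh 3' to 5' log2 ratio of 1.40, against -0.22 to -0.12 in the other controls. Starved H was low for the untested member Chst2, at 5.33 against 6.36 to 6.52 in the other starved arrays. Control D was low for the dimmer Has2 probe set, at 7.23 against 7.69 to 7.74 in the other controls, and still above every starved array. Starved G was high for Sdc2, at 10.50 against 10.32 to 10.33 in the other starved arrays, and below every control.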

How the results depend on the processing

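Chst15 and Has2 were lower under each alternative whose brightness filter kept them, from -3.32 to -2.47 and from -1.48 to -0.99. With a filter at the 60th percentile neither was bright enough to be tested, so 0 members were called lower. In unscaled values, where the median of all genes was -0.34, Chst11 was at -0.16, Ext2 at -0.26 and Ext1 at -0.67. There, and with the mean of probe sets (Ext1 at -0.28), Ext1 joined the genes called lower, which made 3 members. Over all genes, 1027 of 8355 were called lower in unscaled values and 575 of 8352 with the mean of probe sets. Nothing is read from these member counts. With 1 array left out Hs6st1 ran from -0.393 to -0.132, Chst11 from 0.066 to 0.249 where it stayed above the filter, and Ext2 from -0.066 (without starved F) to 0.308, at -0.025 without control B.

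Among all genes tested 580 fell and 355 rose; in unscaled values 1027 and 45, and with median centring 219 rose. With 1 array left out 226 (without starved F) to 370 rose. Of the lists without members, in unscaled values 3 heparan, 1 hyaluronan, 1 supply and 2 lysosomal genes fell, and 0 heparan, 0 supply and 0 core protein genes rose. Without an intensity trend 0 heparan and 0 lysosomal genes fell. With median centring 1 supply gene fell, and 0 lysosomal genes fell with either centring, without an offset or without a filter, against 2 with the mean of probe sets. Without a filter 0 supply and 2 core protein genes rose, and with the mean of probe sets 0 supply genes rose. With 1 array left out, 0 to 1 heparan, 0 to 1 supply and 0 to 1 lysosomal genes fell, 0 to 1 supply genes rose and 1 to 2 core protein genes rose. The causes were not tested. The untested probe sets were also read without control B, a choice made after seeing the data.

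No paired analysis was possible because the replicate letters differ between the groups. Dim signals limit what Chst1, Chst2 and Chst12 can show, those of Chst12 in starved arrays being close to the offset. Starved signals were also dim for both Chst15 probe sets and for the dimmer Has2 probe set.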
